A study of Mus musculus with 22 samples.

Results

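Fibroblast growth factors, their receptors and klotho were described in choroid plexus (ChP) of mice with altered *Otx2*. The 10 genes were chosen by symbol as the ligands *Fgf1*, *Fgf2*, *Fgf7* and *Fgf9*, the receptors *Fgfr1*, *Fgfr2*, *Fgfr3* and *Fgfr4*, and the klothos *Kl* and *Klb*, of 33964 genes in all. The study asked which genes change in adult ChP when the homeoprotein OTX2 is lowered, and RNA was sequenced from 14 pools of mice, 2 pools (A and B) for each of 7 groups.

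Fibroblast growth factors are secreted proteins that bind receptor tyrosine kinases at the cell surface together with heparan sulfate, a sulfated sugar chain. The bound receptor signals through adaptor proteins to the MAP kinase pathway, whose target genes include inhibitors of the same pathway. Klotho, which ChP epithelium makes in large amounts, is a membrane protein that can be shed, and it serves as co-receptor for the hormone-like FGF23. Beta-klotho, the product of *Klb*, plays that part for FGF19 and FGF21. Receptors 1 to 3 exist in a IIIb form, typical of epithelia, and a IIIc form, typical of mesenchyme, which differ by 1 exon of the ligand-binding domain and in the ligands that they accept.

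In the conditional model, 3-month-old S129 *Otx2* lox/lox mice received recombinant Cre-Tat protein or vehicle in the lateral ventricles, and all groups, controls included, carried the lox alleles. ChP was taken 15 days later, with lateral ventricle (LV) and 4th ventricle (4V) apart, and each pool held 5 Cre-Tat or 4 vehicle mice. By the paper's description, LV and 4V ChP came from the same injected mice, so results in both ventricles are not from separate animals. The main tests took LV and 4V pools as unpaired. *Otx2* in Cre-Tat samples had been checked by qPCR to be lower, on average, than in controls. In the constitutive model of B6D2 strain, 4V ChP was pooled from wildtype mice, from *Otx2*+/GFP mice (*Otx2* (+/-) in the labels), both 3 months old, and from *Otx2*+/AA mice, whose age and allele are described no further in the sources used here. Model, strain and sequencing run cannot be told apart, since each model is of 1 strain and its libraries were sequenced apart from those of the other.

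The files attached to the pools of the conditional model were joined by the library number in their names. For 14 of these 16 files that number belongs to another pool than the one they are attached to, and both technical replicates of a pool differed by no more than sampling noise only when joined by number (chi-square of 1.00 to 1.03 times the degrees of freedom, against 13.2 to 20.5 as attached). Directions rest on this choice, since with the files as attached *Fgf1* was at -0.18 and -0.47 and *Kl* at 0.43 and 0.41 (log2 fold change of Cre-Tat against vehicle in LV and 4V ChP), the reverse of the values below. The pools held 22750019 to 50088408 counts over all transcripts. *Otx2*, the targeted gene, counted over its whole transcript was at 385 and 469 CPM (reads scaled to the size of the library) in vehicle and 1236 and 1024 CPM in Cre-Tat pools of LV ChP, and at 386 and 393 against 1202 and 1222 CPM in 4V ChP. It was at 361 and 303 CPM in wildtype, 1027 and 886 CPM in *Otx2*+/GFP and 339 and 356 CPM in *Otx2*+/AA pools. The count was thus higher in the libraries labelled as knockdown. The reads of the deleted exon were not counted on their own here, so these values do not check the deletion. For a single exon of this gene, the paper reports fewer reads in the knockdown mice of both models. That count was not repeated here. The paper also lists *Otx2* itself among genes significantly downregulated in both models, in LV and 4V ChP of Cre-Tat mice and 4V ChP of *Otx2*+/GFP mice. That is the reverse of the direction of the whole-transcript counts here, and the cause was not tested. Of the 8 *Otx2* transcripts in the files, 8 were higher in Cre-Tat pools in each ventricle, and 7 were higher and 1 lower in *Otx2*+/GFP pools. *Ttr*, the epithelial gene of transthyretin and a known target of OTX2, was lower in Cre-Tat pools of 4V ChP (73818 and 61116 against 168179 and 138694 CPM, adjusted p = 0.015 in edgeR's test) and in *Otx2*+/GFP pools (76394 and 89875 against 147802 and 139093 CPM, adjusted p = 0.04). In Cre-Tat pools of LV ChP *Ttr* was at 94642 and 134506 against 177619 and 185373 CPM and did not pass in edgeR's test. The groups are called by their labels, and every direction given below is that of the libraries so labelled. Of 11 markers of ChP epithelium, 7 were lower in the pools labelled Cre-Tat of LV ChP and 11 in 4V ChP, 3 were lower in *Otx2*+/GFP pools, and none passed in *Otx2*+/AA pools in edgeR's test (5 at an unadjusted p under 0.05, 1 by DESeq2). Their summed level was 220609 to 229401 CPM in vehicle and 121744 to 163389 CPM in Cre-Tat pools of LV ChP, and 183463 to 217649 against 86001 to 97425 CPM in 4V ChP. In constitutive pools it was 188227 to 198797 CPM in wildtype, 124203 to 132475 CPM in *Otx2*+/GFP and 153595 to 157332 CPM in *Otx2*+/AA. *Ttr*, 1 of these 11 markers, made up most of the sum in every pool, so the sum mainly follows that gene. Of 7 macrophage markers, 2 were higher in the Cre-Tat pools of LV ChP and 5 in those of 4V ChP (58.8 to 65.8 against 95.3 to 105 CPM, and 42.4 to 44.4 against 64.9 to 88.8 CPM summed). Of 5 ependymal markers, 3 and 2 were higher in those comparisons. Among 5 astrocyte markers, Cre-Tat pools had 2 higher and 1 lower in LV ChP but 3 higher and 1 lower in 4V ChP, while *Otx2*+/GFP pools had 2 higher. Of 7 neuron markers 1 was higher in LV and 1 lower in 4V ChP, and the single lymphocyte marker tested of 6 was higher in LV ChP (0.334 to 0.497 against 2.06 to 3.57 CPM summed over the 6). Of 6 stromal fibroblast markers tested, 1 was lower (*Pdgfra*) and 1 higher (*Col1a2*) in Cre-Tat pools of each ventricle. *Col1a2* was also higher in *Otx2*+/GFP pools. *Col3a1* was higher in *Otx2*+/GFP pools too (adjusted p = 0.018), where the 7 stromal markers summed to 1004 to 1108 CPM against 726 to 799 CPM in wildtype. The macrophage marker *Mrc1* was higher in *Otx2*+/GFP pools (adjusted p = 0.042) and the endothelial marker *Plvap* in Cre-Tat pools of 4V ChP (adjusted p = 0.034). The part of these cells in the values below was not tested. In tissue pools, fewer cells of a type and less RNA per cell cannot be told apart.

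The members spanned a wide range of levels. Per kilobase of transcript, *Kl* was far above all others, with group means of 273 to 604 CPM per kilobase, and ranked between 30th and 75th of all genes. *Fgfr2* followed with group means of 47.0 to 68.3 and *Fgfr1* with 19.4 to 24.6 CPM per kilobase. *Fgfr3* lay at 2.20 to 3.71, *Fgf2* at 2.76 to 5.18 and *Fgf1* at 2.31 to 12.7 CPM per kilobase, and the order of these 3 genes depended on the group. In vehicle pools of LV ChP, *Fgf2* (5.18 ± 1.18 CPM per kilobase, SD, n = 2) was above *Fgf1* (2.74 ± 0.883) and *Fgfr3* (2.70 ± 0.0204), and the last pair did not differ beyond their spread. In Cre-Tat pools of LV ChP, *Fgf1* was first of the 3 at 10.8 ± 0.830 CPM per kilobase (SD, n = 2). *Fgf7* lay at 0.697 to 1.92 and *Fgf9* at 0.113 to 0.443 CPM per kilobase. *Fgfr4* and *Klb* were near the limit of detection, with 5 and 19 reads over all 14 pools and no read in 9 and 5 of the pools. They did not pass the filter on low counts, so 8 of the 10 members were tested.

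**Figure D1:**
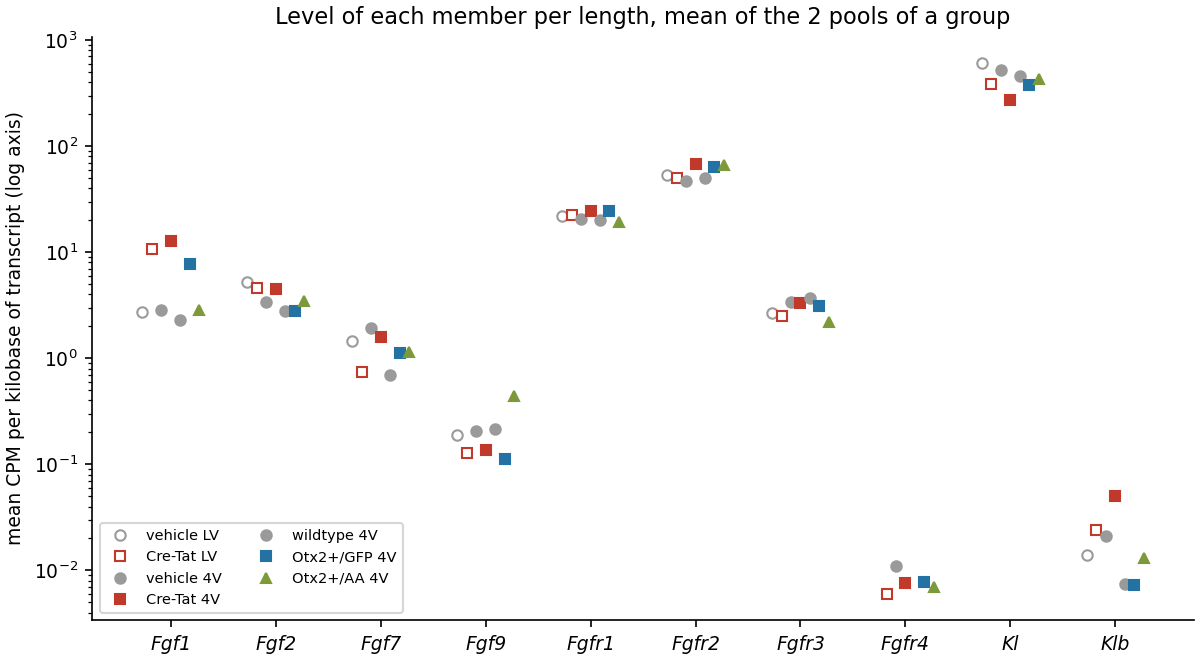
Level of each member in each of the 7 groups, as the mean CPM per kilobase of transcript of the 2 pools of a group, on a log axis (a group mean of 0 is not drawn). *Kl* lies between 273 and 604 CPM per kilobase and *Fgfr2* between 47.0 and 68.3, while *Fgfr4* and *Klb* lie near 0.

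Among the ligands, *Fgf1* rose in the pools labelled as knockdown of both models. *Fgf1* (ENSMUSG00000036585, chr18:38838673-38929472, minus strand, GRCm38) encodes acidic FGF, which binds all FGF receptors in both splice forms and is released without a signal peptide. It was at 8.41 and 13.4 CPM in vehicle and 45.4 and 40.8 CPM in Cre-Tat pools of LV ChP. In 4V ChP it was at 10.1 and 12.8 CPM in vehicle and 48.8 and 52.2 CPM in Cre-Tat pools. In both ventricles the lowest Cre-Tat pool was above the highest vehicle pool. The change was 1.99 ± 0.21 (log2 fold change ± SE) in LV ChP and 2.15 ± 0.16 in 4V ChP, which is 3.97-fold and 4.44-fold (edgeR's quasi-likelihood test, adjusted p = 0.00011 and 9.1e-08). Between the ventricles the change differed by -0.16 ± 0.28 on the log2 scale (interaction, adjusted p = 1.0).

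*Fgf1* was also higher in *Otx2*+/GFP pools, at 30.2 and 31.2 CPM against 8.14 and 10.2 CPM in wildtype pools, and no values overlapped. The change was 1.74 ± 0.16 on the log2 scale, or 3.35-fold (adjusted p = 0.0011). *Otx2*+/AA pools held 9.70 and 13 CPM, which overlapped with wildtype (0.30 ± 0.21 on the log2 scale, adjusted p = 0.79). Set directly against each other, *Otx2*+/GFP was above *Otx2*+/AA by 1.44 ± 0.18 on the log2 scale (adjusted p = 0.0011). In 4V ChP the change in the conditional model was larger than that in *Otx2*+/GFP by 0.39 ± 0.22 on the log2 scale, which did not pass the test (adjusted p = 0.49).

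The files hold 7 transcripts of *Fgf1*, which share most of their exons and so most of their reads. The values above are those of the transcript with the most reads, which had 36.0% of the counts on these transcripts. The log2 ratio of group means ran from 1.91 to 2.31 over the 7 transcripts in LV ChP, from 2.14 to 2.38 in 4V ChP and from 1.30 to 1.76 for *Otx2*+/GFP against wildtype. All 7 were thus higher in each of these 3 comparisons. Over the 8 pools of the conditional model, the genes whose log2 level was most like that of *Fgf1* were *Phldb1*, *Gpx3* and *Otx2* itself (Pearson r of 0.994, 0.992 and 0.990, given as a description). *Gpx3* encodes an extracellular glutathione peroxidase, and it was at 6.54 to 20.3 CPM in the 4 vehicle pools and 267 to 848 CPM in the 4 Cre-Tat pools. These pools share the groups, so genes that differ between Cre-Tat and vehicle resemble each other on this measure.

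**Figure D2:**
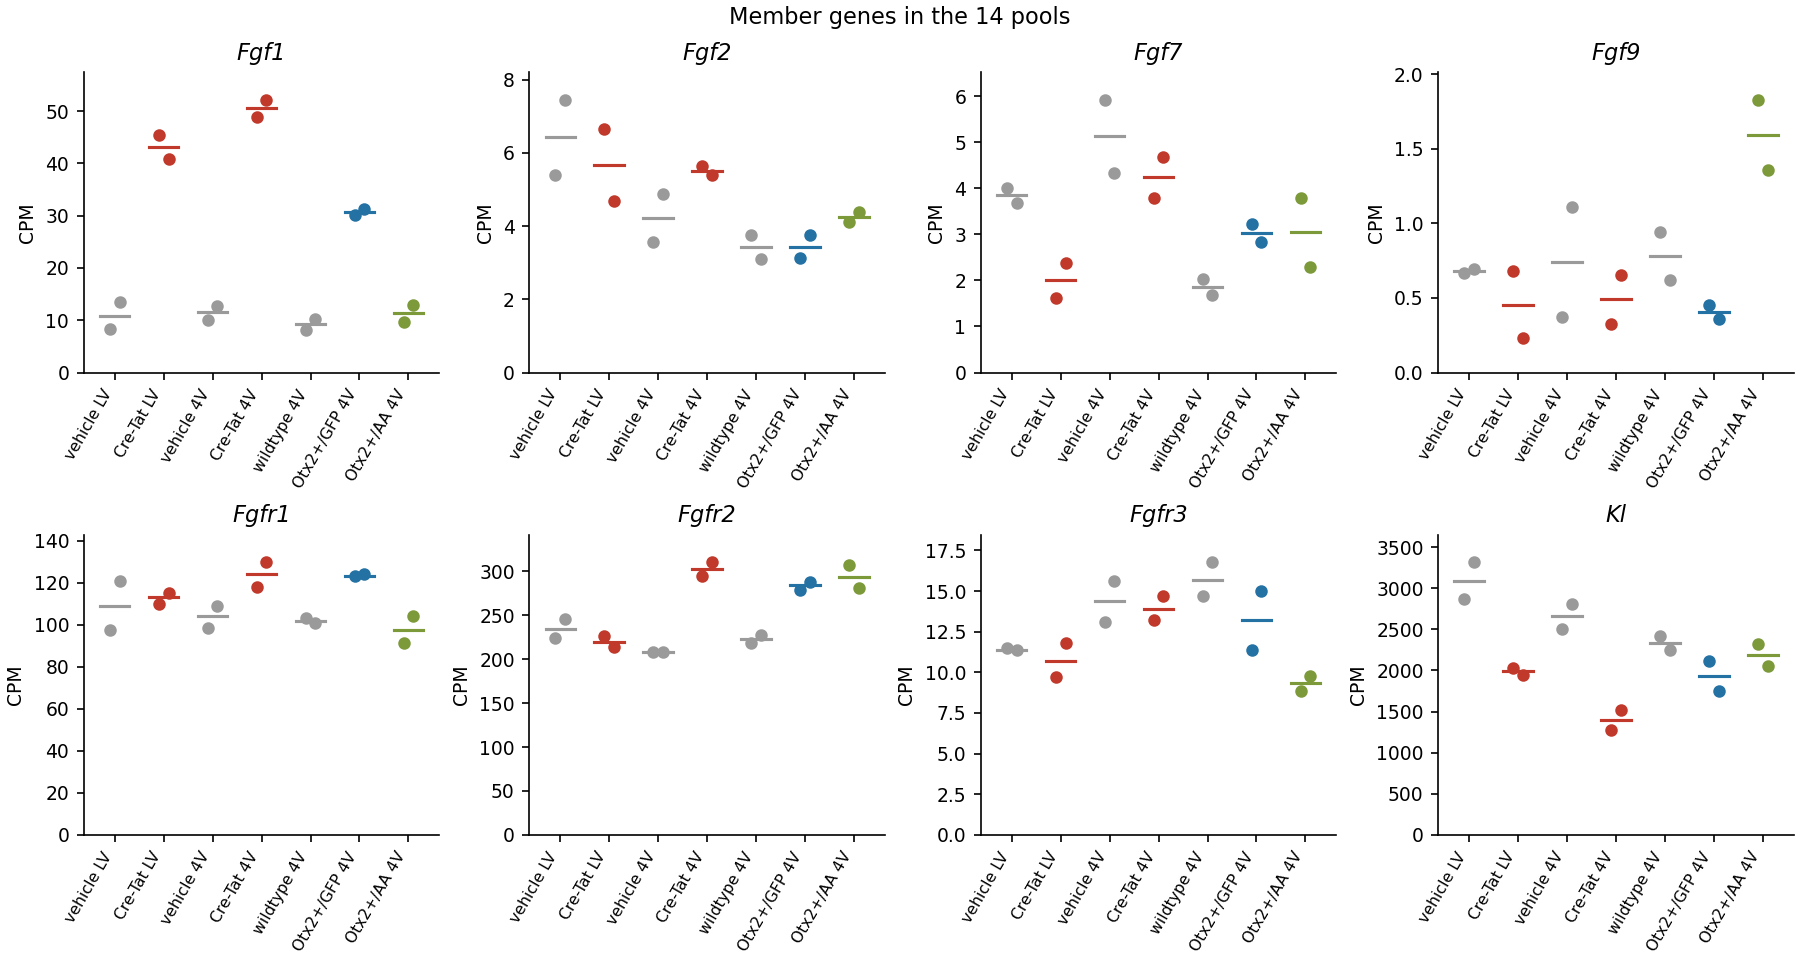
CPM of the 8 members tested in each of the 14 pools, with 1 point per pool and a line at the mean of the 2 pools of a group. *Fgf1* reaches 40.8 to 52.2 CPM in Cre-Tat and 30.2 to 31.2 CPM in *Otx2*+/GFP pools, with no other pool above 13.4 CPM, and *Kl* is lowest in Cre-Tat pools of 4V ChP.

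The other ligands did not pass the test against vehicle or wildtype in any group. *Fgf2* (ENSMUSG00000037225, chr3:37348346-37410108, plus strand), basic FGF, known for its action on neural stem cells, was at 5.40 and 7.46 CPM in vehicle and 6.66 and 4.68 CPM in Cre-Tat pools of LV ChP. In 4V ChP it was at 3.56 and 4.89 against 5.64 and 5.39 CPM. The pools overlapped in LV ChP (-0.17 ± 0.26 on the log2 scale, adjusted p = 0.88) and lay apart in 4V ChP (0.40 ± 0.26, adjusted p = 0.40). In the constitutive model all 6 pools lay between 3.09 and 4.38 CPM. Its transcript overlaps with *Nudt6* on the opposite strand over 242 bases, or 19.5% of its length, and since the strand used in counting is not given in the sources used here, reads of both genes may be counted together. It also overlaps with *Gm43439* on the same strand over 215 bases, or 17.3%, where reads may be shared at any strand setting.

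*Fgf7* (ENSMUSG00000027208, chr2:126034658-126091185, plus strand), or keratinocyte growth factor, is a stromal ligand of the IIIb form of FGFR2. It was at 4.01 and 3.68 CPM in vehicle and 1.61 and 2.38 CPM in Cre-Tat pools of LV ChP. The pools did not overlap, but the difference of -0.95 ± 0.32 on the log2 scale did not pass the test (adjusted p = 0.15). In 4V ChP it was at 5.93 and 4.34 CPM against 3.80 and 4.68 CPM, and the pools overlapped (-0.28 ± 0.26, adjusted p = 0.61). In the constitutive model it was at 2.04 and 1.69 CPM in wildtype, 3.23 and 2.83 CPM in *Otx2*+/GFP and 3.80 and 2.29 CPM in *Otx2*+/AA pools. Both mutants lay above wildtype by 0.70 on the log2 scale, with adjusted p = 0.24 and 0.59.

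*Fgf9* (ENSMUSG00000021974, chr14:58070547-58112720, plus strand) encodes a secreted ligand that binds IIIc forms and FGFR3. It had only 5 to 39 reads a pool. Its levels were 0.940 and 0.619 CPM in wildtype, 0.454 and 0.360 CPM in *Otx2*+/GFP and 1.83 and 1.36 CPM in *Otx2*+/AA pools. The 3 groups did not overlap, with *Otx2*+/AA highest and *Otx2*+/GFP lowest. Neither mutant passed against wildtype (-0.93 ± 0.54, adjusted p = 0.41, and 1.01 ± 0.43, adjusted p = 0.49), whereas *Otx2*+/GFP was 1.95 ± 0.46 lower than *Otx2*+/AA on the log2 scale (adjusted p = 0.045). That call was kept in 4 of 11 alternative analyses and lost in the others. Over the alternatives that kept all pools, the adjusted p ran from 0.028 to 0.19. In the conditional model *Fgf9* overlapped between Cre-Tat and vehicle in both ventricles, with 5 to 17 reads a pool.

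*Fgfr2* was the main receptor transcript and the only receptor that passed the test in a comparison. It lies at chr7:130162451-133123350 on the minus strand (ENSMUSG00000030849) and encodes a receptor whose ligand choice is set by its alternative exon. In 4V ChP it was at 208 CPM in both vehicle pools and at 295 and 311 CPM in Cre-Tat pools. This was a rise of 0.54 ± 0.13 on the log2 scale, or 1.46-fold (adjusted p = 0.013). Without vehicle pool A or vehicle pool B the adjusted p was 0.14 and 0.12, with changes of 0.56 and 0.54. In LV ChP it was at 224 and 246 CPM in vehicle and 227 and 214 CPM in Cre-Tat pools, which overlapped (-0.09 ± 0.16, adjusted p = 0.90). The difference between the ventricles was -0.63 ± 0.19 on the log2 scale, with an unadjusted p of 0.0049 in edgeR's test and an adjusted p of 1.0.

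In the constitutive model *Fgfr2* was at 219 and 228 CPM in wildtype, 279 and 288 CPM in *Otx2*+/GFP and 307 and 281 CPM in *Otx2*+/AA pools. Both mutants lay above wildtype without overlap, by 0.35 ± 0.11 and 0.39 ± 0.13 on the log2 scale, and neither passed the test (adjusted p = 0.14 and 0.30). These 2 comparisons share the wildtype pools. The counts are those of the transcript with the most reads of 26 that overlap, which is annotated as a target of nonsense-mediated decay. Over these 26 transcripts the log2 ratio of Cre-Tat to vehicle ran from 0.35 to 0.72 in 4V ChP and from -0.21 to 0.04 in LV ChP.

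The IIIb and IIIc exons of *Fgfr2* set which ligands the receptor accepts. The excess of IIIc over IIIb reads was taken from differences between counts of transcripts that share all other exons. It was the same number for 3 such pairs of transcripts in each of the 14 pools. Reads on each exon were then derived from a further pair, which also differs in other exons. The reads on those exons were taken from other pairs and allowed for. The agreement of the 3 pairs thus checks the excess and not the reads on each exon. In all, 817 reads lay on the IIIc exon and 140 on the IIIb exon, so the IIIc exon held 85.4% (95% Wilson interval 83.0 to 87.5%, which covers counting error only). In single pools its share ran from 67.6% (25 of 37 reads, vehicle pool B of 4V ChP) to 95.7% (44 of 46 reads, wildtype pool A), and IIIc reads were the more numerous in every pool. By group, the share was 82.4% in vehicle and 84.4% in Cre-Tat pools of LV ChP, and 79.6% and 85.9% in those of 4V ChP. It was 92.3% in wildtype, 88.2% in *Otx2*+/GFP and 85.0% in *Otx2*+/AA pools. The Wilson intervals of compared groups overlapped (79.6% had 70.3 to 86.5%, and 85.9% had 80.3 to 90.2%), and no test was made. The IIIb exon had 2 to 19 reads a pool.

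**Figure D3:**
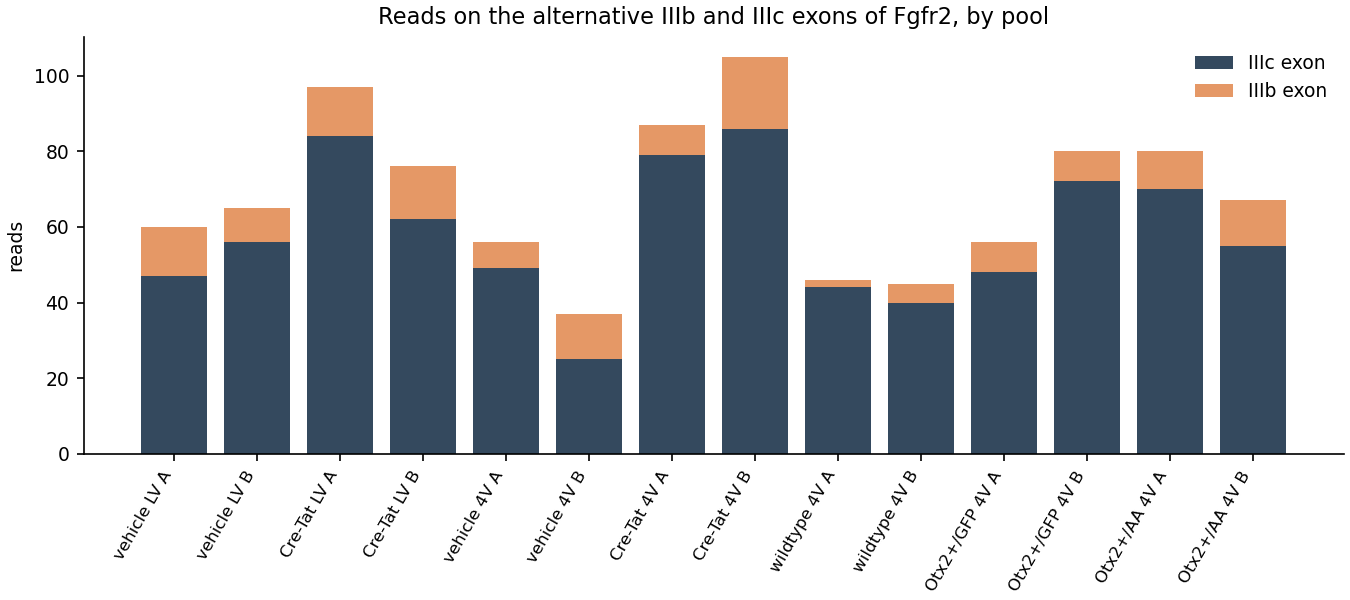
Reads on the IIIc exon (dark) and the IIIb exon (light) of *Fgfr2* in each of the 14 pools, as derived from transcript counts. IIIc reads make up 67.6 to 95.7% of the reads of a pool.

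No other receptor passed in the edgeR fits that gave the values here, though some alternative analyses called *Fgfr1* or *Fgfr3*. *Fgfr1* (ENSMUSG00000031565, chr8:25513654-25575718, plus strand), a receptor of wide expression, lay between 91.4 and 130 CPM in all pools. It was at 98.5 and 109 CPM in vehicle and 118 and 130 CPM in Cre-Tat pools of 4V ChP (0.26 ± 0.13 on the log2 scale, adjusted p = 0.26). It was at 103 and 101 CPM in wildtype and 123 and 124 CPM in *Otx2*+/GFP pools (0.28 ± 0.11, adjusted p = 0.21). In both cases the pools lay apart, while those of LV ChP overlapped (0.05 ± 0.17).

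*Fgfr3* (ENSMUSG00000054252, chr5:33721674-33737068, plus strand), known in brain from astroglia and their progenitors, was at 14.7 and 16.8 CPM in wildtype and 8.86 and 9.80 CPM in *Otx2*+/AA pools. The pools did not overlap, and the difference of -0.76 ± 0.18 on the log2 scale did not pass the test (adjusted p = 0.10). It passed in 3 of 11 alternative analyses. In *Otx2*+/GFP pools it was at 11.4 and 15 CPM (-0.25 ± 0.18, adjusted p = 0.51). Cre-Tat and vehicle pools overlapped in both ventricles (-0.09 ± 0.19 and -0.03 ± 0.17). A transcript on the opposite strand, G630022F23Rik, covers 10.3% of its length.

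*Fgfr4* (ENSMUSG00000005320, chr13:55152640-55168759, plus strand) had at most 1 read in any pool. *Klb* (ENSMUSG00000029195, chr5:65348314-65384007, plus strand) had at most 2 reads in 13 pools and 6 reads in Cre-Tat pool B of 4V ChP. A count of 3 is taken here as the limit of detection, so no fold is given for either gene.

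*Kl* was the most abundant member by far and was lower in Cre-Tat pools. It lies at chr5:150952607-150993817 on the plus strand (ENSMUSG00000058488) and has a single transcript of 5 exons in the files. In 4V ChP it was at 2508 and 2811 CPM in vehicle and 1276 and 1514 CPM in Cre-Tat pools. It fell by 0.93 on the log2 scale (SE 0.17), to 0.526 of the vehicle level (adjusted p = 0.0016), and this call was kept in all 11 alternative analyses with the files joined by number. In LV ChP it was at 2865 and 3322 CPM in vehicle and 2027 and 1950 CPM in Cre-Tat pools. The pools did not overlap, and the difference of -0.63 ± 0.16 just missed the threshold (adjusted p = 0.052). It was past the threshold in 8 of 12 alternative analyses with the files joined by number, with differences of -0.75 to -0.46. Without vehicle pool A or vehicle pool B the adjusted p was 0.15 and 0.47. The changes in the ventricles differed by 0.30 ± 0.22 on the log2 scale (adjusted p = 1.0).

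Beside this, the median log2 change of the 11 epithelial markers was -0.67 in LV ChP and -0.96 in 4V ChP, close in size to that of *Kl*, and the median of all genes tested was 0.00 and 0.01. In the constitutive model *Kl* was at 2420 and 2248 CPM in wildtype, 2112 and 1748 CPM in *Otx2*+/GFP and 2327 and 2052 CPM in *Otx2*+/AA pools. *Otx2*+/GFP pools lay below wildtype by 0.27 ± 0.14 on the log2 scale and *Otx2*+/AA pools overlapped with wildtype (adjusted p = 0.36 and 0.91). The change in Cre-Tat pools of 4V ChP was lower than that in *Otx2*+/GFP pools by 0.67 ± 0.22 on the log2 scale, with an unadjusted p of 0.0084 in edgeR's test and an adjusted p of 0.18. Genes most like *Kl* over the 8 conditional pools were *Ugdh*, *Sptb* and *Paqr9* (Pearson r of 0.990, 0.990 and 0.988).

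The 250 bases before the RefSeq start of *Kl* and *Fgfr2*, the members called in Cre-Tat pools for which the RefSeq promoter table holds a window, are shown with each CG pair in capitals (GRCm38.p6). They lie at chr5:150952357-150952606 on the plus strand and at chr7:130266809-130267058 on the minus strand. The *Fgfr2* transcript counted here starts at chr7:130266245, downstream of that window, so the bases shown are not those just before it.
Kl promoter: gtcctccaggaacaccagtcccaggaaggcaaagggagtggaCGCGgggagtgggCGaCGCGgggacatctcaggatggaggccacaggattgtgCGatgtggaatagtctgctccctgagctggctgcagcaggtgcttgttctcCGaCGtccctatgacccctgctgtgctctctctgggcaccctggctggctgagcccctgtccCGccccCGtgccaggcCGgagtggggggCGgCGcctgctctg
Fgfr2 promoter: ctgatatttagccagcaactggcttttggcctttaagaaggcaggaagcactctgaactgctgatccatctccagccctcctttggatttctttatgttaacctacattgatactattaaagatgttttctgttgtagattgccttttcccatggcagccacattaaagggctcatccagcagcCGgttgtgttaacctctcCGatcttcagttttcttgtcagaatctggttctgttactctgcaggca
The bases shown hold 13 CG pairs for *Kl* and 2 for *Fgfr2*. Both were searched, together with the 50 bases after the start, for the letters TAATCC on either strand, the core that OTX-type homeodomains are known to bind. None of the 9 windows of 8 members held it, and 7.06% of 32851 promoter windows of the same length did. This says only that these letters are not in these windows.

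Counted together, 1 of the 8 members tested was higher in Cre-Tat pools of LV ChP, where 2.21% of 14991 genes were, and none was lower, where 1.03% were. In 4V ChP 2 were higher (*Fgf1* and *Fgfr2*; 5.7% of 14537 genes) and 1 was lower (*Kl*; 4.99%). In *Otx2*+/GFP pools 1 was higher than in wildtype (1.79% of 14561 genes) and none lower (1.74%). In *Otx2*+/AA pools none passed in either direction in edgeR's test (0.173% of 14482 genes in each). There, 3 had an unadjusted p under 0.05 and DESeq2 also called 0. Between *Otx2*+/GFP and *Otx2*+/AA 1 was higher and 1 lower (1.37% and 1.33% of 14569 genes). With library totals in place of TMM scaling, the genes called higher and lower went from 331 and 155 to 391 and 47 in LV ChP, from 828 and 726 to 1315 and 426 in 4V ChP, and from 25 and 25 to 29 and 10 in *Otx2*+/AA. Between *Otx2*+/GFP and *Otx2*+/AA they went from 199 and 194 to 183 and 294. With 8 genes these shares are coarse, and 2 pools against 2 cannot go below p = 0.333 in an exact permutation test, so the calls rest on the spread that edgeR estimated across genes.

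**Figure D4:**
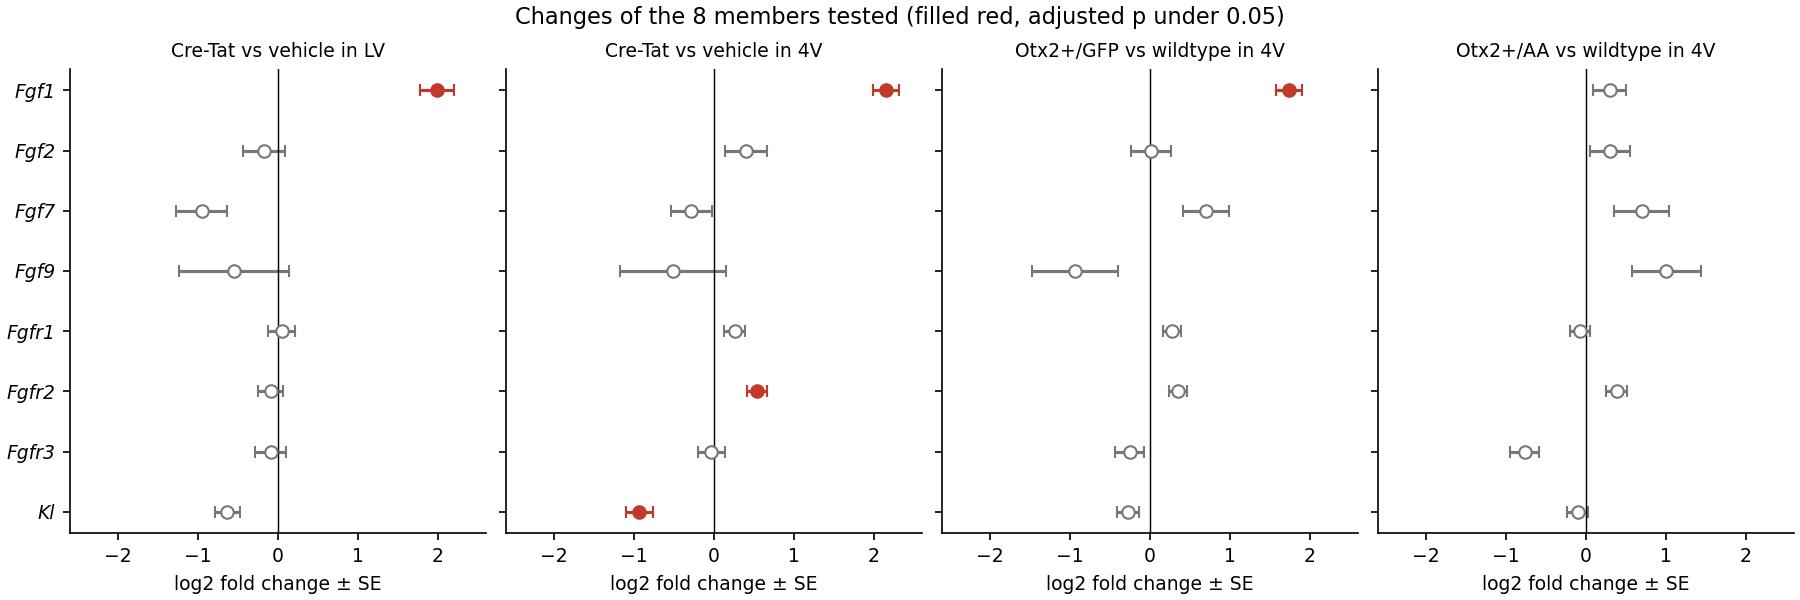
Log2 fold change with its SE of the 8 members tested in 4 comparisons, with filled red points for adjusted p under 0.05. *Fgf1* passes at 1.99, 2.15 and 1.74 and lies at 0.30 in *Otx2*+/AA, while *Fgfr2* (0.54) and *Kl* (-0.93) pass in Cre-Tat pools of 4V ChP.

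Between LV and 4V, no member passed in edgeR's test, in vehicle (3.5% of 14548 genes higher and 4.02% lower in LV) or in Cre-Tat pools (2.99% and 2.88% of 15099 genes). With library totals, the genes higher and lower in LV went from 509 and 585 to 252 and 1221 in vehicle and from 451 and 435 to 371 and 1165 in Cre-Tat pools. At an unadjusted p under 0.05 there were 1 and 3 members, and DESeq2 called 0 and 1. In vehicle pools *Fgf2* was higher in LV ChP without overlap (0.61 ± 0.26 on the log2 scale, adjusted p = 0.18). In Cre-Tat pools *Fgf7* was lower in LV than in 4V ChP, at 1.61 and 2.38 against 3.80 and 4.68 CPM (-1.09 ± 0.32, adjusted p = 0.053), and it was past the threshold in 6 of 11 alternative analyses. *Kl* differed by 0.21 ± 0.13 in vehicle and 0.51 ± 0.20 in Cre-Tat pools, and *Fgfr2* by 0.17 ± 0.12 and -0.46 ± 0.18, with no call in edgeR's test. In Cre-Tat pools DESeq2 called *Kl* (adjusted p = 0.025), and library totals called *Fgfr2* (-0.62, adjusted p = 0.047). No member passed in the interaction of Cre-Tat and ventricle (0.00643% of 15552 genes did) or of knockdown and model (1.61% of 15314 genes). At an unadjusted p under 0.05 there were 1 and 2 members, and DESeq2 called 0 and 1, the latter *Kl*.

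Other genes of the pathway were taken from lists by role. Of 14 further FGF ligands only 1 or 2 passed the filter on low counts in a comparison. *Fgf18*, a ligand of IIIc forms and FGFR3, was lower in Cre-Tat pools of 4V ChP, at 7.60 and 8.41 against 13.8 and 13.6 CPM (-0.77 ± 0.18, adjusted p = 0.011), a call that DESeq2 did not make. It was also lower in *Otx2*+/GFP pools, at 7.07 and 7.04 against 16.4 and 14.5 CPM (-1.13 ± 0.16, adjusted p = 0.0070). In LV ChP the difference was -0.54 on the log2 scale and did not pass. None of the 3 FGF homologous factors tested, which stay inside cells and act on sodium channels, passed in any of the 4 comparisons with vehicle or wildtype (edgeR, 1 of 12 tests at an unadjusted p under 0.05, 0 by DESeq2).

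Of 6 receptor partners and FGF-binding proteins, 2 were higher in Cre-Tat pools of LV ChP, 1 was higher and 1 lower in those of 4V ChP, and 3 were higher in *Otx2*+/GFP pools. Of all genes, 2.21% were higher in LV ChP, 5.7% higher and 4.99% lower in 4V ChP, and 1.79% higher in *Otx2*+/GFP pools. *Flrt1*, a membrane protein that binds FGF receptors, was higher in all 3, at 13.6 and 13.3 against 3.77 and 5.22 CPM, at 11.6 and 20 against 2.96 and 2.49 CPM, and at 9.74 and 10 against 3.86 and 4.50 CPM. These are changes of 1.58 ± 0.22, 2.53 ± 0.27 and 1.24 ± 0.19 on the log2 scale. *Fgfbp1*, a secreted carrier that frees FGF1 and FGF2 from matrix, was at 23.8 and 17.4 CPM in *Otx2*+/GFP and 4.02 and 4.16 CPM in wildtype pools (2.34 ± 0.21). It was at 4.90 and 12.5 against 2.29 and 2.14 CPM in LV ChP (1.97 ± 0.37) and did not pass in 4V ChP (0.70). The changes in 4V ChP of both models differed by -1.64 ± 0.31 (interaction, adjusted p = 0.018). *Flrt2* was lower in Cre-Tat pools of 4V ChP (-0.57 ± 0.13) and *Flrt3* higher in *Otx2*+/GFP pools (0.62 ± 0.13).

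Of 25 genes that build, edit or carry heparan sulfate, 22 were tested against vehicle or wildtype. In LV ChP 2 were higher and 1 lower, in 4V ChP 3 and 2, and in *Otx2*+/GFP pools 3 and 1, with list medians of -0.13, -0.04 and 0.10 on the log2 scale. Of all genes, 2.21% and 1.03%, 5.7% and 4.99%, and 1.79% and 1.74% were higher and lower. In *Otx2*+/AA pools none passed in edgeR's test (5 at an unadjusted p under 0.05, 2 by DESeq2). The sulfatases SULF1 and SULF2, which remove 6-O-sulfate from finished chains, went in opposite directions in 4V ChP of both models. *Sulf2* was higher in LV ChP (15.3 and 18.0 against 8.21 and 10.8 CPM), in 4V ChP (18.7 and 19.0 against 9.19 and 8.95 CPM) and in *Otx2*+/GFP pools (46.6 and 39.7 against 12.2 and 13.8 CPM), by 0.81 ± 0.20, 1.06 ± 0.17 and 1.73 ± 0.15. *Sulf1*, the more abundant in CPM, was lower in 4V ChP (358 and 338 against 573 and 629 CPM, -0.78 ± 0.14) and in *Otx2*+/GFP pools (327 and 329 against 471 and 541 CPM, -0.62 ± 0.12). In LV ChP it differed by -0.54 and did not pass.

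*Hs6st2*, which adds the 6-O-sulfate, was lower in Cre-Tat pools of both ventricles (164 and 172 against 269 and 307 CPM in LV, 124 and 144 against 236 and 229 CPM in 4V ChP), by 0.77 and 0.80 on the log2 scale. *Hs3st1*, a 3-O-sulfotransferase, was higher in both (1.04 ± 0.19 and 0.63 ± 0.19). The core protein gene *Gpc3* and the chain polymerase gene *Ext1* were higher in *Otx2*+/GFP pools (1.45 ± 0.14 and 1.20 ± 0.13), and for both the change differed from that of Cre-Tat pools of 4V ChP (interaction of -1.69 ± 0.24 and -1.07 ± 0.18, adjusted p = 0.0034 and 0.011). *Gpc4* was higher in Cre-Tat pools of 4V ChP (0.72 ± 0.13). *Sulf1* was also the gene of this list with the smallest adjusted p between ventricles, at 1118 and 1343 CPM in LV against 573 and 629 CPM in 4V vehicle pools (1.03 ± 0.13, adjusted p = 0.00030).

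**Figure D5:**
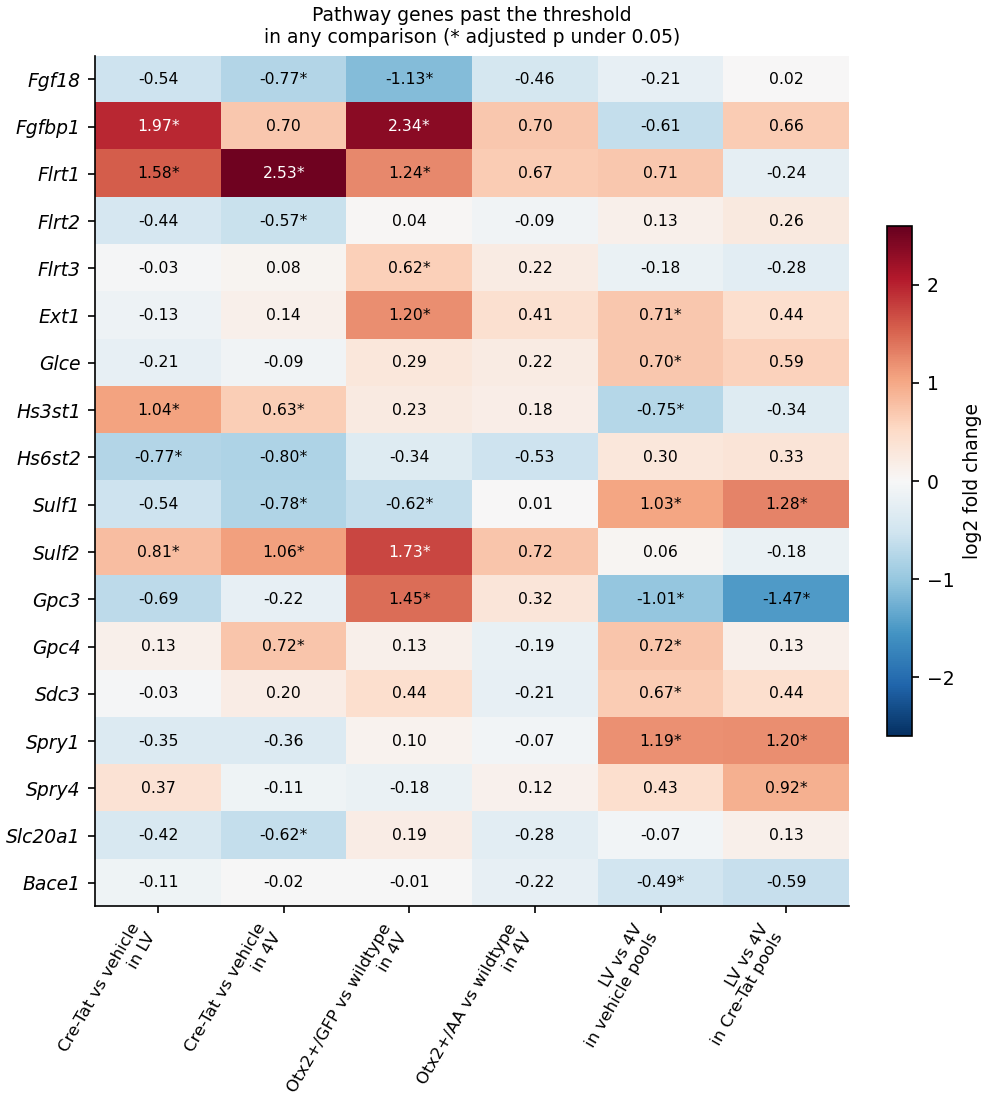
Log2 fold change of the pathway genes outside the 10 members that passed the threshold in at least 1 comparison, for 6 comparisons, with an asterisk for adjusted p under 0.05. *Flrt1* and *Sulf2* carry an asterisk in the first 3 comparisons, and no gene does in *Otx2*+/AA pools.

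Downstream of the receptors little passed. None of 19 genes of intracellular FGF signalling, such as adaptors and MAP kinases, passed in the 4 comparisons with vehicle or wildtype (edgeR, 7 of 76 tests at an unadjusted p under 0.05, 0 by DESeq2). None of 14 feedback inhibitors and target genes passed in them either (edgeR, 12 of 55 tests at an unadjusted p under 0.05, 0 by DESeq2). Split up, the feedback list had 3 of 14 (Cre-Tat, LV), 2 of 13 (Cre-Tat, 4V), 7 of 14 (*Otx2*+/GFP) and 0 of 14 (*Otx2*+/AA) at such a p. The signalling list had 0, 4, 3 and 0 of 19, in the same order. Among all genes tested the shares were 14.2%, 22.2%, 18.5% and 8.9%. At the adjusted threshold, calls were few among all genes too, with at most 5.7% higher and 4.99% lower (Cre-Tat, 4V). Whether either list changed less than other genes was not tested. The feedback inhibitor *Spry1* differed between ventricles, at 27.8 and 28.3 CPM in LV against 13.4 and 11.1 CPM in 4V vehicle pools (1.19 ± 0.15, adjusted p = 0.00036). In Cre-Tat pools it was at 23.0 and 20.8 against 8.85 and 10.2 CPM (1.20 ± 0.19), and there *Spry4* was higher in LV ChP too (0.92 ± 0.22, adjusted p = 0.016). Of 7 endothelial markers, 3 were higher in LV than in 4V ChP in vehicle pools (183 to 210 against 122 to 136 CPM summed) and 3 in Cre-Tat pools (210 to 234 against 121 to 140 CPM). *Plvap* was at 29.8 and 43.6 against 9.19 and 12.6 CPM in vehicle pools. Of 7 mural markers 0 (edgeR, 4 at an unadjusted p under 0.05, 0 by DESeq2) and 3 were higher, and of 3 and 4 oligodendrocyte markers tested 1 and 2. The part of these cells in the differences between ventricles, those of *Sulf1* and *Bace1* included, was not tested.

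Of 15 genes around klotho (its relative, the proteases that shed it, and vitamin D and phosphate genes), 5 to 7 were tested against vehicle or wildtype. Only *Slc20a1*, a phosphate carrier, passed, and it was lower in Cre-Tat pools of 4V ChP, at 30.8 in both against 51.6 and 43.4 CPM (-0.62 ± 0.14, adjusted p = 0.0076). It was 1 of 5 genes of the list tested there, where 4.99% of all genes were lower and 5.7% higher. Between ventricles *Bace1*, which encodes a protease that can shed klotho, was lower in LV vehicle pools (-0.49 ± 0.12, adjusted p = 0.025). It was 1 of 5 tested there, where 4.02% of all genes were lower.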

How the data were processed

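RNA-seq counts of 14 ChP pools were analysed. The authors deposited raw counts of reads per Ensembl transcript (submitters' notes: Bowtie 0.12.9, HTSeq 0.5.3, SAMtools, mm10). The annotation release and strand setting are not given in the sources used here. The labels describe ribosomal RNA depletion and stranded ScriptSeq libraries, and the methods PolyA+ selection. Bowtie of that version does not split reads across exon junctions.

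Of 95533 transcripts, 82807 matched GENCODE vM21 (GRCm38) with 89.5% of counts. Of the transcripts of a gene, that with the highest summed count stood for it, and technical replicates were added up. Tests were run in R 4.3.3 with edgeR 4.0.16 (filterByExpr, TMM, quasi-likelihood test, Benjamini-Hochberg over all genes tested, threshold 0.05), with only the compared groups in a fit. CPM are TMM-scaled over all pools, and SE is the coefficient over the root of F. Nothing says whether pools A and B share batches, so p-values measure the spread between pools. Tables used Python 3.11.15 and pandas 2.3.3, with Wilson intervals from SciPy 1.17.1. The procedure was tested on simulated data. DESeq2 1.42.0 was an alternative, with others of normalization, filter, gene summary, block, fit and left-out pools.

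The members and lists were chosen with earlier results of these data known. Named were the members, and up to 4 genes of each other list with the smallest adjusted p past the threshold. Likeness used log2(CPM + 1) of genes with a mean of at least 1 CPM, 3 per member. The sequences of the alternative *Fgfr2* exons are not reported here.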

Additional observations from a re-analysis of the deposited data

Results flagged for a closer look

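The effects of both constitutive alleles against the shared wildtype pools differed for 2 members, as tested by setting *Otx2*+/GFP directly against *Otx2*+/AA with edgeR's quasi-likelihood test. *Fgf1* was higher in *Otx2*+/GFP by 1.44 on the log2 scale (adjusted p = 0.0011, no overlap of the 2 pools of each group). *Fgf9* differed by -1.95 (adjusted p = 0.045, no overlap), with 9 and 7 reads in *Otx2*+/GFP against 39 and 26 in *Otx2*+/AA pools. Groups of 2 pools are too small to test a single pool as an outlier.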

How the results depend on the processing

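With the files joined by number, *Fgf1* kept its direction and its call in all alternatives of the 4 comparisons in which it was called, with log2 changes of 1.68 to 2.36 in LV ChP, 1.99 to 2.32 in 4V ChP, 1.58 to 1.91 for *Otx2*+/GFP against wildtype and 1.24 to 1.66 against *Otx2*+/AA. The values that turned direction lay near 0 or had few reads, and their cause was not tested. The 2 pools a group and, for *Fgf9*, *Fgfr4* and *Klb*, read number limit the precision.

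In LV ChP, 2 members passed with DESeq2's size factors, with DESeq2, with no filter, with sums over transcripts and with all groups in 1 fit, against 1 in the report (*Kl* being added). In *Otx2*+/AA 1 passed with no filter, where calls over all genes went from 25 and 25 to 192 and 198. Between *Otx2*+/GFP and *Otx2*+/AA 1 passed with DESeq2, sums or all groups in 1 fit, against 2. Between ventricles in Cre-Tat pools 2 passed with library totals and 1 with DESeq2, no filter, sums or all groups in 1 fit, against 0. In the interaction of knockdown and model 1 passed with DESeq2 and with no filter, against 0. Calls over all genes went there from 120 and 127 to 170 and 203 with DESeq2 and 320 and 306 with no filter.

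With library totals the median log2 change of all genes was 0.17 in LV and 0.15 in 4V ChP, 0.11 in *Otx2*+/AA, 0.12 in the interaction of knockdown and model, and -0.19 and -0.17 between ventricles in vehicle and Cre-Tat pools. With them *Fgf2* (0.01), *Fgfr2* (0.08) and *Fgfr3* (0.07) in LV ChP, *Fgfr3* in 4V ChP (0.11), *Fgfr1* (0.05) and *Kl* (0.02) in *Otx2*+/AA, *Fgfr1* (-0.12) and *Fgfr2* (-0.02) between ventricles in vehicle pools and *Fgf2* (-0.12) in Cre-Tat pools turned direction. With sums over transcripts *Fgf2* in LV ChP (0.01) and *Fgf9* between ventricles (0.06 in vehicle and 0.06 in Cre-Tat pools) did, and with DESeq2 *Fgf7* between *Otx2*+/GFP and *Otx2*+/AA (0.00).

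The pool letters are not stated to pair pools, and deviations of same-lettered pools correlated by -0.128 (LV ChP) to 0.359 (*Otx2*+/GFP and wildtype) over 2 pairs. With the letter as a replicate block, 4 members passed in 4V ChP (3 without, *Fgfr1* being added with adjusted p = 0.033), 3 in *Otx2*+/GFP against wildtype (1 without, *Fgfr1* and *Fgfr2* being added with adjusted p = 0.044 and 0.013), and 1 each in *Otx2*+/AA against wildtype (0 without), between *Otx2*+/GFP and *Otx2*+/AA (2 without), between ventricles in Cre-Tat pools (0 without) and in the interaction of knockdown and model (0 without). *Fgf7* between *Otx2*+/GFP and *Otx2*+/AA was then at 0.02. With crossed letters, chosen after seeing the data, 2 members passed in LV ChP, where calls over all genes went from 331 and 155 to 588 and 409.

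When each pool was left out in turn, 1 to 2 members passed in LV ChP, 0 to 1 in *Otx2*+/AA, 1 to 2 between *Otx2*+/GFP and *Otx2*+/AA, and 0 to 1 between ventricles in vehicle and 0 to 1 in Cre-Tat pools. Log2 changes that turned direction ran from -0.44 to 0.08 (*Fgf2*), -1.53 to 0.01 (*Fgf9*), -0.11 to 0.21 (*Fgfr1*) and -0.23 to 0.06 (*Fgfr3*) in LV ChP, and from -1.14 to 0.41 (*Fgf9*) and -0.14 to 0.09 (*Fgfr3*) in 4V ChP. They ran from -0.13 to 0.15 (*Fgf2*) in *Otx2*+/GFP, -0.16 to 0.02 (*Fgfr1*) in *Otx2*+/AA, and -0.33 to 0.41 (*Fgf7*) and -0.11 to 0.02 (*Fgfr2*) between both. Between ventricles they ran from -0.42 to 0.21 (*Fgf1*), -0.69 to 0.86 (*Fgf9*) and -0.07 to 0.21 (*Fgfr1*) in vehicle pools, and -0.21 to 0.28 (*Fgf2*) and -1.06 to 0.49 (*Fgf9*) in Cre-Tat pools. The interaction of *Fgf1* with ventricle ran from -0.46 to 0.21.

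With files taken as attached, each pool of the conditional model mixes libraries of different numbers. Then 6 members passed in LV ChP, 5 in 4V ChP, and 5 and 2 between ventricles in vehicle and Cre-Tat pools. Calls over all genes were as common, with 3388 higher and 3317 lower of 14943 in LV ChP. In 4V ChP they were 4360 and 4382 of 14845. Between ventricles they were 2283 and 2432 of 14442 in vehicle pools and 2394 and 2411 of 14997 in Cre-Tat pools. In LV ChP *Fgf1* was at -0.18, *Fgf2* at 0.36, *Fgf9* at 0.96, *Fgfr1* at -0.07 and *Kl* at 0.43, and in 4V ChP *Fgf1* was at -0.47, *Fgfr1* at -0.04, *Fgfr2* at -0.25 and *Kl* at 0.41. Between ventricles *Fgf2* (-0.12), *Fgf7* (0.05), *Fgfr1* (-0.14), *Fgfr2* (-0.08) and *Kl* (-0.12) in vehicle pools and *Fgf1* (0.05), *Fgf9* (0.57) and *Kl* (-0.11) in Cre-Tat pools turned direction too.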
